A study of Mus musculus with 6 samples.

Results

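The iron and haem handling genes described here are the 9 genes Hmox1, Slc40a1, Slc11a1, Fth1, Ftl1, Tfrc, Blvra, Blvrb and Ncoa4, taken by symbol from a gene count table of 48709 genes. All 9 were found. A further row that carries the symbol Fth1 is a processed pseudogene with 0 counts in every library and was not used. The mRNA came from F4/80+ CD11b+ macrophages sorted from peritoneal lavage of untreated C57BL/6 mice aged 6 to 8 weeks. The 3 Zeb1 (+/-) libraries, from mice heterozygous for Zeb1, were compared with 3 wild-type libraries, and each library pooled 2 mice. The design of the Zeb1 allele is not given in the sources used here, and each library is an average over its pool, so differences between single mice are not seen.

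Macrophages recycle iron. They take it up bound to transferrin through the transferrin receptor, or as haem from engulfed red cells, and they keep what is not used inside the ferritin shell, built of heavy and light chains. Haem oxygenase opens the haem ring to give biliverdin, carbon monoxide and iron, biliverdin reductases turn biliverdin into bilirubin, and ferroportin is the one known exporter of iron from the cell. When iron is scarce, iron regulatory proteins bind hairpins in mRNAs called iron-responsive elements. Binding near the 5′ end blocks translation, while binding in the 3′ untranslated region protects the transcript from decay.

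The hairpins of these genes are shown because they set how iron acts on each mRNA, through translation for the ferritins and ferroportin and through stability for the transferrin receptor. Each line gives 27 bases of the principal GENCODE M21 transcript, written as DNA 5′ to 3′, with the loop in capitals. The search, on the transcript strand, asked for the loop CAGTGN, for pairing of the 5 bases before it with the 5 bases after it (G with T allowed), and for a C just before that stem.
Fth1, 5′ untranslated region: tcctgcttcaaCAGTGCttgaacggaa
Ftl1, 5′ untranslated region: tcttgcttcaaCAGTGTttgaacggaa
Slc40a1, 5′ untranslated region: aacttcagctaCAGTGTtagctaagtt
Tfrc, 3′ untranslated region, element 1: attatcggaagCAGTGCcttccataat
Tfrc, 3′ untranslated region, element 2: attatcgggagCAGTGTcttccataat
Tfrc, 3′ untranslated region, element 3: tatatcggagaCAGTGAtctccatatg
Tfrc, 3′ untranslated region, element 4: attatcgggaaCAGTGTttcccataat

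The 5′ elements of Fth1, Ftl1 and Slc40a1 began 132, 170 and 224 bases before the first coding base. The 4 Tfrc elements that this search found began 892, 1271, 1336 and 1383 bases after the last coding base. Hairpins with other loop letters or an unpaired base in the stem would be missed. Among 21901 protein-coding genes of the annotation, with all their protein-coding transcripts read, 31 (0.142%) had such a match in a 5′ untranslated region and 129 (0.589%) in a 3′ untranslated region. These letters and pairs were not found in the principal transcripts of Hmox1, Slc11a1, Blvra, Blvrb and Ncoa4.

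The libraries held between 17859872 and 42165006 counts, so that 1 CPM (the usual count unit relative to TMM-scaled library size) stands for 17.9 to 42.3 counts. Zeb1 itself was at 3.85, 3.45 and 3.62 CPM in Zeb1 (+/-) libraries, against 5.44, 7.56 and 7.22 CPM in wild-type libraries (log2 fold change −0.89 ± 0.16, SE; edgeR adjusted p = 0.0522). The groups did not overlap, although the adjusted p missed the threshold of 0.05. Small structural RNAs summed to 43.6 to 45.5 CPM in Zeb1 (+/-) libraries and to 42.2 CPM in wild-type replicate 3, but were at 4.14 and 8.69 CPM in replicates 1 and 2 of the wild-type group. All 10 core macrophage markers were detected, and they summed to 47153 to 63495 CPM in Zeb1 (+/-) and 45878 to 64095 CPM in wild-type libraries. Most of that sum was Lyz2, at 35056 to 51780 CPM in Zeb1 (+/-) and 34210 to 52824 CPM in wild-type libraries. Neutrophil markers summed to 2.19 to 3.80 CPM in Zeb1 (+/-) and 1.85 to 2.46 CPM in wild-type libraries, with Mpo at 0. B cell markers summed to 80.5 to 108 CPM in Zeb1 (+/-) and 132 to 262 CPM in wild-type libraries. Markers of small cavity macrophages summed to 3090 to 3138 CPM in Zeb1 (+/-) and 4603 to 4736 CPM in wild-type libraries. Most of the small cavity sum was Cd74, Retnla and H2-Ab1. Their means were 1331, 744 and 443 CPM in Zeb1 (+/-), against 1907, 1136 and 614 CPM in wild-type. Of the 10 small cavity markers, 8 were lower in Zeb1 (+/-) by the edgeR test, a list chosen with earlier results of these libraries known and so no independent evidence of direction. Markers of large cavity macrophages summed to 70995 to 75657 CPM in Zeb1 (+/-) and 64819 to 70745 CPM in wild-type libraries, and 0 of those 10 passed. The largest part of that sum was Fn1, at means of 43921 CPM in Zeb1 (+/-) and 41719 CPM in wild-type, and its groups overlapped. In bulk RNA, fewer cells of a type and less RNA per cell cannot be told apart.

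The comparison asked which of these mRNAs differ between Zeb1 (+/-) and wild-type resting macrophages. None of the 8 genes with enough counts to be tested passed the threshold in either direction, and Slc40a1, the ferroportin gene, was near the limit of detection. The ferritin mRNAs were abundant and differed little between genotypes. Tfrc, Hmox1 and Slc11a1 had the lowest log2 fold changes, Zeb1 (+/-) over wild-type throughout, at −0.40, −0.33 and −0.19. Of the 12940 genes in the edgeR quasi-likelihood fit, 0.587% passed after Benjamini-Hochberg adjustment, 0.155% higher and 0.433% lower in Zeb1 (+/-), so few genes of any kind passed. At an unadjusted p under 0.05 stood 2 of the 8, Slc11a1 and Tfrc, against 14.6% of all tested genes. DESeq2 and limma-voom also called 0 of the 8. The median log2 fold change of the 8 was −0.09, against −0.00038 over all tested genes, with 2 genes above 0 and 6 below. Of the 8, 5 had a log2 fold change smaller in size than the median size over all tested genes, 0.11.

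**Figure D1:**
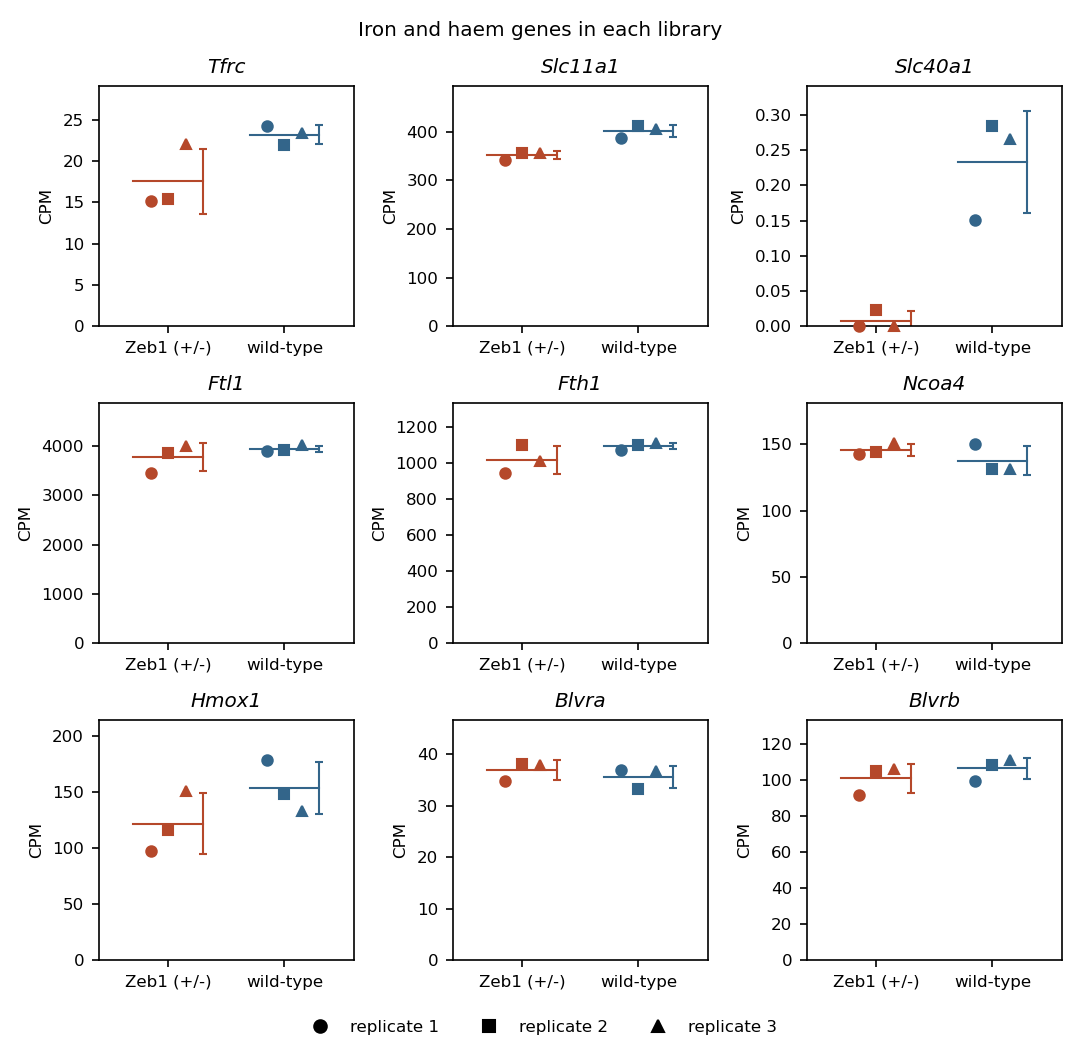
Level of each of the 9 genes (y axis, CPM from 0) in the 3 Zeb1 (+/-) libraries (left in each panel) and the 3 wild-type libraries (right); horizontal lines are means and bars the SD. Groups overlap in 7 panels and are apart for Slc11a1 (342 to 357 against 388 to 412 CPM) and Slc40a1, whose Zeb1 (+/-) libraries hold 1 count in all.

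Tfrc (chromosome 16, 32608920 to 32632794, plus strand, GRCm38) encodes the transferrin receptor, which carries iron-loaded transferrin into endosomes. Its level was 15.2, 15.4 and 22.1 CPM in Zeb1 (+/-) replicates 1, 2 and 3, against 24.2, 22.0 and 23.4 CPM in wild-type replicates 1, 2 and 3. Zeb1 (+/-) replicates 1 and 2 were below every wild-type library, and Zeb1 (+/-) replicate 3 lay just above the lowest of them, so the groups overlapped. Mean levels were 17.5 ± 3.93 CPM in Zeb1 (+/-) and 23.2 ± 1.15 CPM in wild-type (SD, n = 3 each), and the log2 fold change was −0.40 ± 0.14 (SE; 95% confidence interval −0.71 to −0.09; edgeR adjusted p = 0.243). Among all tested genes 10.4% had a log2 fold change of larger size. Without Zeb1 (+/-) replicate 3 Tfrc was lower in Zeb1 (+/-), at a log2 fold change of −0.60 (edgeR adjusted p = 0.0287). In that fit 127 genes passed in all, and over the other alternatives the adjusted p of Tfrc ran from 0.0578 to 0.664.

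Because Tfrc had the largest fold change among the 8, the 5 genes closest to it in pattern were looked up by the root mean square difference of centred log2 CPM over the 6 libraries. They were Maf, Cpeb2, Kctd12, Bcar3 and Fgd2, with differences between 0.057 and 0.064 on the log2 scale. Maf, a transcription factor gene of macrophages, was at 88.1, 91.5 and 133 CPM in Zeb1 (+/-) libraries, against 140, 141 and 146 CPM in wild-type libraries (edgeR adjusted p = 0.198). As for Tfrc, the third Zeb1 (+/-) library was the one closest to wild-type, a likeness that follows from choosing genes by this pattern. None of the 5 passed the threshold.

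Slc11a1 (chromosome 1, 74375195 to 74386062, plus strand), also called Nramp1, encodes a metal transporter of the phagosome membrane that moves iron and manganese out of the compartment. C57BL/6 mice carry a form of the protein known to lack function, so its mRNA level in this strain is not a measure of transport. The level was 342, 357 and 357 CPM in Zeb1 (+/-) replicates 1, 2 and 3, against 388, 412 and 406 CPM in wild-type replicates 1, 2 and 3. Slc11a1 was the one tested gene of the set whose groups did not overlap, as they also did not for 19.9% of all tested genes, 10.3% lower and 9.6% higher in Zeb1 (+/-). Mean levels were 352 ± 8.48 CPM in Zeb1 (+/-) and 402 ± 12.5 CPM in wild-type (SD, n = 3 each), a log2 fold change of −0.19 ± 0.06 (SE; 95% confidence interval −0.33 to −0.05; unadjusted p = 0.0118, edgeR adjusted p = 0.209). The log2 fold change stayed between −0.22 and −0.17 over 14 alternatives, none of which brought the adjusted p under 0.05 (0.151 to 0.608).

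Ferritin is the store. Ftl1 (chromosome 7, 45457944 to 45459884, minus strand) encodes the light chain, which helps the mineral core form. Its level was 3450, 3860 and 3994 CPM in Zeb1 (+/-) replicates 1, 2 and 3, against 3891, 3919 and 4006 CPM in wild-type replicates 1, 2 and 3. Zeb1 (+/-) replicate 1 was the lowest of the 6, and the other 5 lay within a narrow band. The log2 fold change was −0.06 ± 0.08 (SE; 95% confidence interval −0.23 to 0.11; edgeR adjusted p = 0.733), and without Zeb1 (+/-) replicate 1 it was 0.0014.

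Fth1 (chromosome 19, 9980598 to 9985098, plus strand) encodes the heavy chain, which oxidises iron as it enters the shell. Its level was 942, 1097 and 1011 CPM in Zeb1 (+/-) replicates 1, 2 and 3, against 1072, 1098 and 1109 CPM in wild-type replicates 1, 2 and 3. Again Zeb1 (+/-) replicate 1 was the lowest, and the groups overlapped. The log2 fold change was −0.10 ± 0.07 (SE; 95% confidence interval −0.27 to 0.06; edgeR adjusted p = 0.546). Together the chains took 0.439% to 0.512% of the scaled counts of a library, at 4785 ± 341 CPM in Zeb1 (+/-) and 5032 ± 77.1 CPM in wild-type (SD, n = 3 each).

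The ratio of Fth1 to Ftl1 counts was 0.273, 0.284 and 0.253 in Zeb1 (+/-) libraries, against 0.276, 0.280 and 0.277 in wild-type libraries. The 3 wild-type libraries were nearly equal, and the Zeb1 (+/-) libraries lay on both sides of them. The mean log2 ratio differed by −0.04 (two-sided exact permutation test, p = 0.7, where 3 against 3 cannot go below 0.1). Ferritin sequences recur in the genome, and 86.2% of the 50-base stretches of Ftl1 transcripts were found again in other genes of the annotation. Of the 11 genes that share at least 1% of them, 9 were matched in the count table, chiefly Ftl1-ps1, and together held 0.476% to 0.607% as many counts as Ftl1. The other 2, Gm10252 and Gm47428, were not analysed here. How reads that match several places were divided is not given in the sources used here, so the Ftl1 level is uncertain. Ftl1 also overlaps the annotated genes Gm22133 and Gm10252. For Fth1 the shared part was 3.59%.

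Ncoa4 (chromosome 14, 32159865 to 32179855, plus strand) encodes the receptor that delivers ferritin to the lysosome, where its iron is released. Its level was 143, 144 and 151 CPM in Zeb1 (+/-) libraries, against 150, 131 and 131 CPM in wild-type libraries. The Zeb1 (+/-) values were even, while wild-type replicate 1 stood above the other libraries of its group. The log2 fold change was 0.09 ± 0.07 (SE; 95% confidence interval −0.08 to 0.25; edgeR adjusted p = 0.623). Ncoa4 shares 39.1% of its 50-base stretches with Gm6768, whose counts were 0.446% to 1.22% of those of Ncoa4.

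Hmox1 (chromosome 8, 75093621 to 75100589, plus strand) encodes haem oxygenase 1, the inducible enzyme that opens haem. Its level was 97.7, 117 and 151 CPM in Zeb1 (+/-) replicates 1, 2 and 3, against 179, 148 and 134 CPM in wild-type replicates 1, 2 and 3. The spread within each genotype was wide, and Zeb1 (+/-) replicate 3 lay above 2 wild-type libraries. Mean levels were 122 ± 27.2 CPM in Zeb1 (+/-) and 154 ± 23.0 CPM in wild-type (SD, n = 3 each), with a log2 fold change of −0.33 ± 0.16 (SE; 95% confidence interval −0.68 to 0.02; edgeR adjusted p = 0.366). Without Zeb1 (+/-) replicate 3 the log2 fold change was −0.51 and without wild-type replicate 1 it was −0.21, and neither passed. It was −0.13 when the class of structural RNA level entered the fit. Wild-type replicates 1 and 2 form the low class, so genotype then rests on wild-type replicate 3 alone against the Zeb1 (+/-) libraries.

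Red cell transcripts varied beside Hmox1. The erythroid markers, mainly the haemoglobin genes Hba-a1, Hba-a2, Hbb-bs and Hbb-bt, summed to 2.96, 29.6 and 48.3 CPM in Zeb1 (+/-) replicates 1, 2 and 3, against 214, 37.4 and 32.1 CPM in wild-type replicates 1, 2 and 3. Slc4a1, the erythroid band 3 gene, was at or near 0 in every library, and Epb42 was at 0. The order of the 6 libraries by this sum was the order by Hmox1, both between and within genotypes, which was noticed after the values were seen. All marker sums were ranked beside Hmox1, and the others matched its rank in 0 to 4 of the 6 libraries. The erythroid values of 29.6, 32.1 and 37.4 CPM lay close together. The 10 immediate-early genes, which cells induce quickly when handled, summed to 1972, 2498 and 3328 CPM in Zeb1 (+/-) and 3142, 2986 and 2499 CPM in wild-type libraries. Their sum put 4 of the 6 libraries at the rank Hmox1 gave them. So did the core macrophage sum, whose order is set by Lyz2, its largest part. Wild-type replicate 1 held the most erythroid transcripts by far and the most Hmox1, and Zeb1 (+/-) replicate 1 the least of both. The part of any of these in the level of Hmox1 was not tested.

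**Figure D2:**
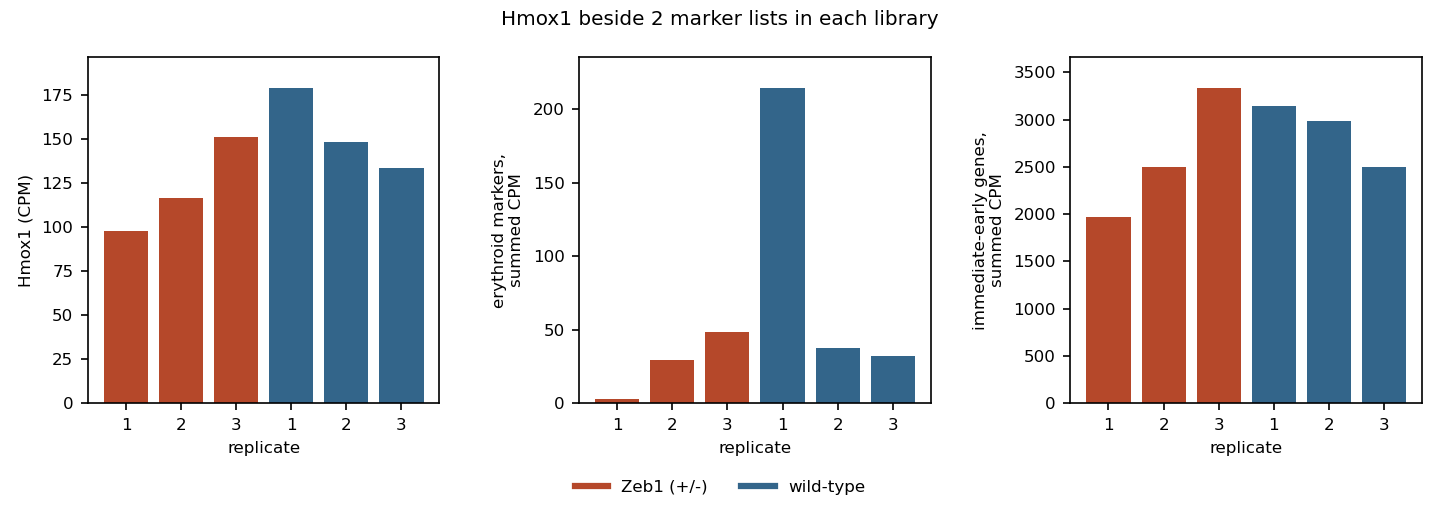
Hmox1 (left), the summed erythroid markers (middle) and the summed immediate-early genes (right) in each library, as bars in CPM from 0, with Zeb1 (+/-) replicates left of wild-type replicates. The libraries stand in the same order for Hmox1 and the erythroid sum, from 97.7 and 2.96 CPM in Zeb1 (+/-) replicate 1 up to 179 and 214 CPM in wild-type replicate 1.

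The enzymes after haem oxygenase were even. Blvra (chromosome 2, 127070665 to 127097084, plus strand), which encodes biliverdin reductase A, was at 34.7, 38.1 and 38.0 CPM in Zeb1 (+/-) libraries, against 36.9, 33.2 and 36.8 CPM in wild-type libraries. Blvrb (chromosome 7, 27447978 to 27466144, plus strand), which encodes biliverdin reductase B, also a flavin reductase, was at 91.6, 105 and 106 CPM in Zeb1 (+/-) libraries, against 99.7, 108 and 111 CPM in wild-type libraries. Both pairs of groups overlapped. The log2 fold changes were 0.06 ± 0.07 for Blvra (SE; 95% confidence interval −0.11 to 0.22; edgeR adjusted p = 0.76) and −0.07 ± 0.08 for Blvrb (SE; 95% confidence interval −0.25 to 0.10; edgeR adjusted p = 0.7).

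The ratio of Blvrb to Blvra counts was 2.64, 2.76 and 2.79 in Zeb1 (+/-) libraries, against 2.70, 3.27 and 3.02 in wild-type libraries. Wild-type replicate 1 lay among the Zeb1 (+/-) values. The mean log2 ratio differed by −0.13 (two-sided exact permutation test, p = 0.3, smallest possible 0.1). Hmox2, the constitutive haem oxygenase, was at 78.8, 83.7 and 86.5 CPM in Zeb1 (+/-) and 85.2, 84.6 and 83.2 CPM in wild-type libraries.

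Slc40a1 (chromosome 1, 45908068 to 45926523, minus strand) encodes ferroportin. It had 0, 1 and 0 counts in Zeb1 (+/-) replicates 1, 2 and 3, against 5, 8 and 5 counts in wild-type replicates 1, 2 and 3. Every Zeb1 (+/-) library was under the limit that a count of 0 allows (3 counts, or 0.0709 to 0.168 CPM), and every wild-type library was above its own limit. Over each group the level was 0.0107 CPM in Zeb1 (+/-) and 0.224 CPM in wild-type, a ratio of 0.0479 with an exact interval of 0.00115 to 0.303 (95%, counting error only). The low-count filter left the gene out of the test. Without that filter its edgeR adjusted p was 0.0367 at a fitted log2 fold change of −3.95, which depends on the prior count and is no bound, in a fit where 2.47% of 21101 genes passed. At 1 count against 18 the gene was barely detected in either genotype, and the values do not tell a low level in all cells from a level in a few. Beside it, in Zeb1 (+/-), stood lower summed levels of small cavity macrophage and B cell markers, given above. The large cavity sum, largely Fn1, was higher, but its nearest libraries were close (70995 CPM in Zeb1 (+/-) against 70745 CPM in wild-type). The part of these sums in the Slc40a1 difference was not tested.

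The ratio of Slc40a1 to Tfrc counts, taken unlogged because of the libraries at 0, was 0, 0.00154 and 0 in Zeb1 (+/-) libraries, against 0.0062, 0.0129 and 0.0113 in wild-type libraries. The two-sided exact permutation p was 0.1, the smallest 3 against 3 can give. It rests on the same 1 and 18 counts. Spic, which encodes a transcription factor that haem induces and that red pulp macrophages of the spleen need, was likewise near the limit, with 1, 3 and 4 counts in Zeb1 (+/-) libraries and 6, 2 and 3 counts in wild-type libraries.

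Per transcript length the 9 genes spanned a wide range. In CPM per kb of the principal transcript, Ftl1 was at 3892 ± 292 in Zeb1 (+/-) and 4069 ± 62.0 in wild-type, and Fth1 at 1095 ± 83.5 and 1177 ± 20.4 (SD, n = 3 each). Slc11a1 followed at 152 ± 3.66 and 174 ± 5.38. In wild-type libraries Ftl1 stood 3.46 times over Fth1, and Fth1 6.78 times over Slc11a1. These folds depend on the length used: per length of all annotated exons they were 9.33 and 2.91.

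Blvrb, at 98.2 ± 7.91 in Zeb1 (+/-) and 104 ± 5.78 CPM per kb in wild-type, and Hmox1, at 77.7 ± 17.3 and 97.9 ± 14.6, could not be ordered beyond their spread, and they changed places when the length of all annotated exons was used. Ncoa4, at 35.9 ± 1.09 in Zeb1 (+/-) and 33.8 ± 2.67 CPM per kb in wild-type, and Blvra, at 31.8 ± 1.66 and 30.7 ± 1.80, were likewise close, with ranges over 6 libraries that overlapped. Tfrc was far lower at 3.59 ± 0.803 and 4.75 ± 0.235, and Slc40a1 stood last at 0.00234 ± 0.00405 and 0.0692 ± 0.0215. With the length of all exons the other genes kept their places.

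**Figure D3:**
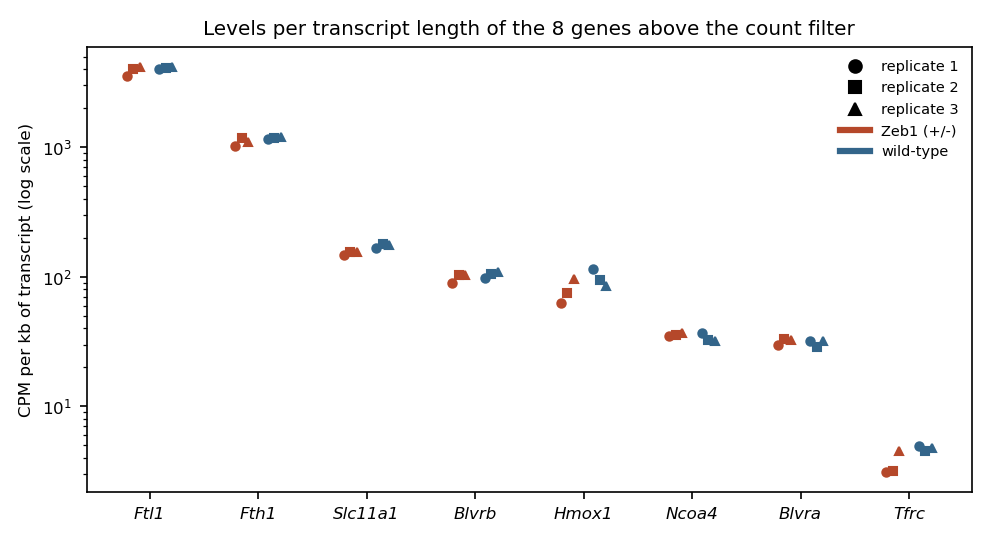
CPM per kb of principal transcript (log axis) of the 8 tested genes, one mark per library, with Zeb1 (+/-) libraries left of wild-type libraries for each gene. Ftl1 at 3564 to 4139 and Fth1 at 1014 to 1194 stand above all others, and Tfrc at 3.11 to 4.96 below them.

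Around these genes, 84 others of iron and haem biology were read from 11 lists, of which 68 were tested. None passed the threshold in either direction by edgeR, while 9 of the 68 had an unadjusted p under 0.05 (14.6% of all tested genes did) and 11 had groups that did not overlap (19.9% of all tested genes did). Neither count stood above that background. DESeq2 called 1 of them, Epas1, and 2.94% of all tested genes. Limma-voom called 0 of them and 0.611% of all tested genes. Their median log2 fold change was −0.02, with 29 above 0 and 39 below.

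Among genes of haem uptake and transport, 0 of 6 tested passed (median −0.12). The largest difference was in Cd163, which encodes the macrophage receptor for haemoglobin bound to haptoglobin. It was at 39.4, 30.4 and 64.9 CPM in Zeb1 (+/-) libraries, against 102, 77.4 and 138 CPM in wild-type libraries. The groups did not overlap, and the log2 fold change was −1.23 ± 0.28 (SE; edgeR adjusted p = 0.0988). It passed without Zeb1 (+/-) replicate 3 (−1.60, adjusted p = 0.0204), without the low-count filter and with the replicate number as a block. Cd163 is also a marker of the small cavity macrophages, whose summed level was lower as given above.

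Among the other genes of haem breakdown and its products 0 of 4 passed. Abcc1, a pump for conjugates, had a log2 fold change of −0.29 ± 0.08 (SE; edgeR adjusted p = 0.143). Among 8 genes of haem synthesis 0 passed, with Alad, the second enzyme of the pathway, at 0.29 ± 0.15 (SE; edgeR adjusted p = 0.409). The synthesis genes had no groups that stood apart.

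Of 7 tested genes of iron uptake and reduction 0 passed. Mcoln1, a lysosomal channel that lets iron and calcium out, was at 47.3, 45.1 and 44.2 CPM in Zeb1 (+/-) libraries, against 53.0, 56.8 and 55.7 CPM in wild-type libraries (log2 fold change −0.28 ± 0.06, SE; edgeR adjusted p = 0.102). Its groups were clearly apart, though the adjusted p missed the threshold. Of 4 genes of storage and iron chaperones and of 3 partners of export, 0 passed. Nupr1, a stress-response gene, had a log2 fold change of −0.14, and Heph, a ferroxidase that works with ferroportin, −0.73, with means of 0.41 CPM in Zeb1 (+/-) and 0.695 CPM in wild-type libraries.

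The iron sensors differed little between genotypes. Ireb2, which encodes iron regulatory protein 2, was at 69.8, 69.5 and 67.7 CPM in Zeb1 (+/-) libraries, against 67.4, 68.3 and 67.8 CPM in wild-type libraries. Aco1, which encodes the aconitase that doubles as iron regulatory protein 1, was at 57.2, 60.7 and 67.4 CPM in Zeb1 (+/-) libraries, against 64.1, 64.7 and 64.4 CPM in wild-type libraries. All 5 sensing genes overlapped between genotypes, and 0 passed. Herc2, a ubiquitin ligase, had the smallest p of them with a log2 fold change of −0.12.

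Of 10 genes of mitochondrial iron and iron-sulfur clusters 0 passed. Of 8 tested regulators of the haem and oxidant response 0 passed. Bach1, the repressor that haem releases from Hmox1, was at 215, 224 and 215 CPM in Zeb1 (+/-) and 197, 251 and 217 CPM in wild-type libraries. Nfe2l2, which encodes the activator NRF2, was at 103, 117 and 122 CPM in Zeb1 (+/-) and 128, 125 and 122 CPM in wild-type libraries. Bach1 overlapped between genotypes, and Nfe2l2 did not, with its highest Zeb1 (+/-) library just under its lowest wild-type library.

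Epas1, which encodes the oxygen-regulated factor HIF-2 alpha, was at 120, 84.1 and 111 CPM in Zeb1 (+/-) libraries, against 62.3, 70.0 and 80.1 CPM in wild-type libraries. Its groups did not overlap, and its log2 fold change was 0.57 ± 0.14 (SE; edgeR adjusted p = 0.111). It passed by DESeq2 (adjusted p = 0.00152), which called 2.94% of all tested genes, and without the low-count filter, where 2.47% passed. Of 8 tested targets of NRF2 0 passed, and Gsr, glutathione reductase, had 0.47 ± 0.19 (SE; edgeR adjusted p = 0.302). Of 5 genes linked to ferroptosis, the death that iron-driven lipid oxidation brings, 0 passed. All 5 had log2 fold changes above 0, with Alox15 at 0.14 (edgeR adjusted p = 0.447).

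**Figure D4:**
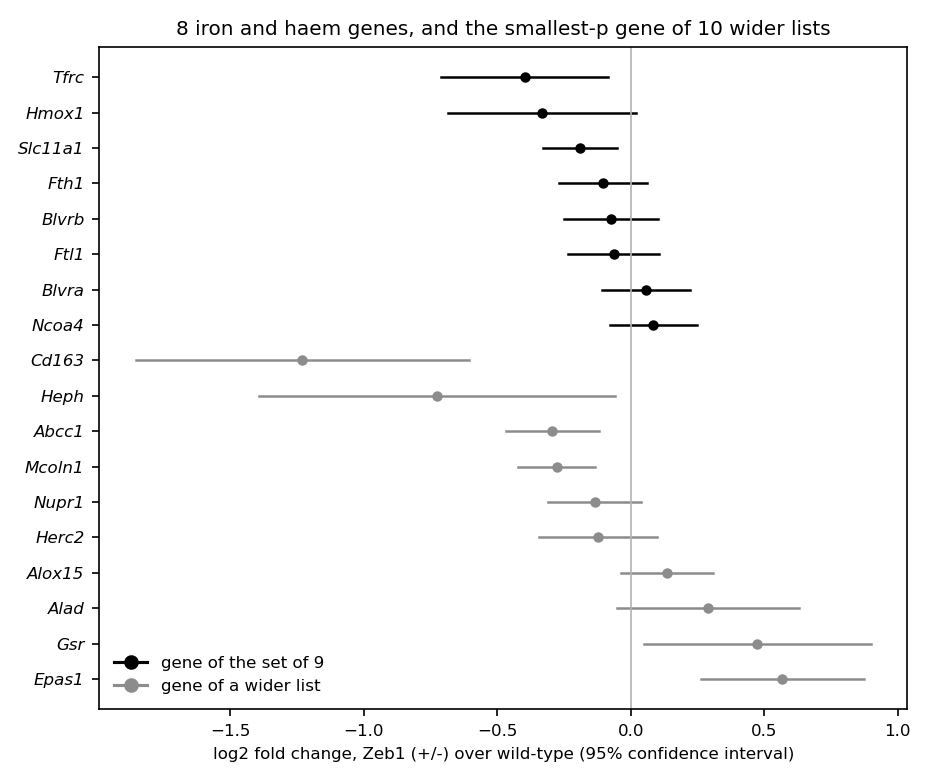
Log2 fold change, Zeb1 (+/-) over wild-type, with its 95% confidence interval for the 8 tested genes of the set (black, top) and for the gene with the smallest p in 10 of the 11 wider lists (grey, below). Tfrc at −0.40 and Cd163 at −1.23 lie lowest in their groups, and 0 of these genes passed the adjusted threshold.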

How the data were processed

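The authors deposited expected counts (estimated counts per gene), for which the submitters' processing notes name STAR, RSEM, edgeR and the build GRCm38, without role or version. All values were whole numbers. The strand setting is not given in the sources used here. Columns were mapped by the identifier in each sample's description, and 0 were left unmapped. Coordinates and transcripts come from GENCODE M21 (99.3% of identifiers matched without version), promoter windows from RefSeq (GRCm38.p6).

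Genotype was tested in R 4.3.3 with edgeR 4.0.16 (quasi-likelihood, TMM scaling, filterByExpr with a minimum count of 10 and total of 15), adjusted by Benjamini-Hochberg over 12940 genes. The fit was also run on simulated counts, drawn without the structural RNA split seen here, and the outcome is not reported here. The SE is the log2 fold change divided by the square root of F. Per the labels' protocols each library is a pool of 2 mice, so p-values measure the spread between these pools. Counting intervals cover counting error only.

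Alternatives were RLE factors, no low-count filter, at least 1 CPM in 3 libraries, replicate block, DESeq2 1.42.0, limma-voom (limma 3.58.1), robust moderation, a covariate for the structural RNA split, and leaving out each library. The structural RNA covariate leaves wild-type replicate 3 as the only wild-type library in the class of the Zeb1 (+/-) libraries, so genotype then rests on it. The genes and lists were chosen with earlier results of these data known. Named are the 9 genes, Zeb1, from each wider list the members past the threshold or else the one with the smallest p, 7 genes fixed by name (Cd163, Spic, Bach1, Nfe2l2, Hmox2, Ireb2, Aco1), rows that resemble ferritin, and the 5 genes most like the one with the largest fold change. Of the wider lists 4 genes were not found by symbol and are not analysed here. Some results that the rule names are not reported here.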

Additional observations from a re-analysis of the deposited data

How the results depend on the processing

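Of 112 refits of the 8 tested genes, 110 kept direction and side of the threshold. Tfrc passed without Zeb1 (+/-) replicate 3 (−0.60), and Ftl1, between −0.10 and 0.0014 with 1 library left out, changed sign without Zeb1 (+/-) replicate 1. Zeb1 passed without a filter, by DESeq2, with robust moderation and without wild-type replicate 1. With the replicate number as a block none of the 9 genes passed, and 1 wider gene, Cd163, did; 15 genes passed in all. The labels do not say that the numbers pair the samples. Same-numbered libraries had correlations of −0.27, −0.03 and −0.25 in their deviations from the group means, and other pairs −0.04 to 0.31. These correlations cannot tell whether same-numbered samples were handled together. The count of genes changed, 76 as reported, was 522 without a low-count filter, 351 by DESeq2, 31 with a covariate for the structural RNA split, and 5 (without wild-type replicate 2) to 127 (without Zeb1 (+/-) replicate 3) with 1 library left out. It was 28 without Zeb1 (+/-) replicate 1 and 11 without Zeb1 (+/-) replicate 2. The number of the 9 genes that passed was 1 without a filter (Slc40a1) and 0 to 1 with 1 library left out. Of the wider genes 4 passed without a filter (Cd163, Epas1, Gsr and Ugt1a1), 1 by DESeq2, and 0 to 1 with 1 library left out. Over all tested genes 2.47% passed without a filter, 2.94% by DESeq2, and 0.0378% to 0.972% with 1 library left out. Bach1 changed sign with the structural RNA split (0.0077, resting on wild-type replicate 3 alone) and without wild-type replicate 2 (range with 1 library left out −0.10 to 0.077). Hmox2 changed sign without Zeb1 (+/-) replicate 1 (range −0.049 to 0.018). The log2 ratio of Fth1 to Ftl1 ran from −0.078 to 0.0056 with 1 library left out, the sign changing without Zeb1 (+/-) replicate 3. The causes were not tested. Adding pseudogene rows left the direction of this ratio as it was; for the other ratios no such row was found.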

Other observations

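Of the genes that other tissues use to handle iron, several were at or near 0 counts in these macrophages. Ftmt (mitochondrial ferritin), Hephl1 (a ferroxidase) and Hamp2 (a hepcidin) had 0 counts in all 6 libraries. Hamp, which encodes the iron hormone hepcidin, had 1 count in Zeb1 (+/-) replicate 2 and 0 elsewhere. Tfr2, the transferrin receptor of liver and erythroid cells, had 0 counts in Zeb1 (+/-) libraries and 2 counts in wild-type replicate 2. A count of 0 allows up to 0.0709 to 0.168 CPM in Zeb1 (+/-) libraries.

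ZEB1 is known to bind E-boxes of the form CAGGTG. In promoter windows from 250 bases before to 50 bases after the start, read on both strands, that motif occurred in 20.2% of 32817 RefSeq windows of GRCm38.p6. It occurred in 3 of 12 windows of the 7 iron and haem genes with an entry, in 1 window each of Fth1, Ncoa4 and Tfrc. Each of these genes also had another annotated start whose window lacked the motif. The core of the antioxidant response element bound by NRF2, TGACNNNGC, occurred in 12.4% of all windows and in 2 of these 12, in 1 window each of Blvra and Ncoa4. These matches are letters in a window and not measured binding. Hmox1 and Slc40a1 had no entry.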
